A study of Mus musculus with 9 samples.

Results

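A set of 10 genes that give the mammalian telencephalon its dorsal, medial and area identity were followed in the newborn mouse: the homeobox factors Emx1 and Emx2, the antisense RNA Emx2os, the doublesex-related factors Dmrt3 and Dmrta2, the LIM homeobox factor Lmx1a, the orphan nuclear receptors Nr2f1 and Nr2f2 (COUP-TFI and COUP-TFII), and the hippocampal factors Prox1 and Zbtb20. They were chosen by name as patterning genes, and their symbols were matched to the Ensembl gene identifiers of the deposited tables. All 10 were found among the 41128 genes listed, and all 10 were among the 15271 genes with enough reads to be tested. RNA came from dorsal telencephalon taken at birth (postnatal day 0) from mice of the strain labelled B6:129SF2/J, with 3 libraries labelled as Tcf4 knockouts (KO), 3 as Tcf4 heterozygotes (Het) and 3 as wild type (WT). TCF4 is a transcription factor of the basic helix-loop-helix (bHLH) type, in the widely expressed class I of that family, and the design asks how gene expression in this tissue depends on it and on its dose. The labels do not give the allele, the number of pups behind a library or their litters, so the p-values cover only how far these libraries spread, which may be technical.

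The dorsal telencephalon is patterned from signalling centres at its edges. The cortical hem, at the medial edge next to the choroid plexus, secretes WNT and BMP proteins, and the hippocampus forms beside it. In the progenitors between the edges, transcription factors are expressed in gradients: EMX2 and the DMRT factors are highest at the caudal and medial side, COUP-TFI is highest caudally and laterally, and together such gradients set the position of the cortical areas and of the hippocampus.

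Total counts ran from 22291940 to 29445788 per library. Levels are given as CPM, which are counts brought to a common library total, with library sizes scaled by the trimmed mean of M-values (TMM), and fold changes and adjusted p-values come from edgeR's quasi-likelihood test over all genes tested, with calls at an adjusted p under 0.05. Gene-level Tcf4 averaged 627 ± 15 CPM in KO, 731 ± 86 CPM in Het and 675 ± 79 CPM in WT libraries (SD, n = 3 each), with adjusted p of 0.36 between KO and WT, 0.33 between Het and WT and 0.13 between KO and Het. Without WT replicate 3 the KO and WT libraries differed by -0.20 on the log2 scale (adjusted p = 0.046). KO and Het differed by -0.22, which passed the threshold in 4 alternatives (adjusted p of 0.038 to 0.043): no filter on low counts, those 2 genotypes alone, and without Het replicate 2 or WT replicate 3. In the full fit no fall of the gene-level count with the label passed the threshold, which part of the gene was deleted is not stated in the labels, and every direction below rests on the labelled genotypes. The label of the tissue was matched by its markers: all 7 cortical excitatory neuron markers were detected in every library, and their summed level was 2197 to 2292 CPM in KO, 2117 to 2397 CPM in Het and 1795 to 2061 CPM in WT libraries. Single excitatory neuron markers went both ways, with 3 higher and 2 lower than WT in KO and likewise in Het libraries. Slc17a7 averaged 62.5 ± 5.1 CPM in KO and 108.0 ± 0.8 CPM in Het, against 212.6 ± 4.9 CPM in WT libraries. Neurod6 averaged 687 ± 50 CPM in KO and 627 ± 69 CPM in Het, against 381 ± 49 CPM in WT libraries. Markers of other cells also differed between the labelled genotypes. The 10 striatal neuron markers summed to 63.6 to 67.1 CPM in KO and 60.8 to 75.2 CPM in Het libraries, against 340 to 366 CPM in WT libraries. The 9 astrocyte markers summed to 346 to 399 CPM in KO and 420 to 460 CPM in Het libraries, against 785 to 831 CPM in WT libraries. The 8 markers of intermediate progenitors, which divide to make cortical neurons, summed to 313 to 343 CPM in KO, 190 to 220 CPM in Het and 85.0 to 98.3 CPM in WT libraries. The 10 radial glia markers, which mark the progenitors where many of the patterning factors are expressed, summed to 1579 to 1675 CPM in KO and 1602 to 1723 CPM in Het libraries, against 1917 to 2070 CPM in WT libraries. Single radial glia markers went both ways, with 4 higher and 3 lower in KO than in WT libraries, and 4 higher and 4 lower in Het than in WT libraries. Vim averaged 248 ± 20 CPM in Het and 138 ± 5 CPM in WT libraries, while Slc1a3 averaged 221 ± 6 CPM in Het and 384 ± 4 CPM in WT libraries. The 6 oligodendrocyte precursor markers summed to 174 to 209 CPM in KO and 183 to 191 CPM in Het libraries, against 357 to 383 CPM in WT libraries. The part of these differences in the results below was not tested. In tissue RNA, more cells of a type and more RNA per cell cannot be told apart.

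Of the 10 patterning genes, 7 were higher in KO than in WT libraries and 7 were higher in Het than in WT libraries, and none was lower in either comparison. They were the same 7 genes: Emx1, Emx2, Emx2os, Dmrt3, Dmrta2, Lmx1a and Nr2f1. Among all genes tested, 26.5% were called higher and 26.3% lower in KO than in WT libraries, 52.8% in all. Against WT, the Het libraries had 22.5% of genes higher and 23.4% lower, 45.9% in all. KO and Het libraries differed in fewer of the 10 genes: Emx2, Dmrta2 and Nr2f1 were called higher in KO, none was called lower, and 8.3% of all genes tested were called higher and 8.44% lower in that comparison, 16.7% in all. With a fold of at least 1.5 also required, 5 of the 10 genes were called against WT in KO and 5 in Het, beside 22.4% and 16.5% of all genes, and none was called between KO and Het, beside 4.81%. Every KO library lay above every WT library for 7 of the 10 genes, beside 31.9% of all genes tested, and 62.7% of all genes did not overlap in one direction or the other. The Het libraries lay above all WT libraries for 8 of the 10, beside 26.8% of all genes (53.6% in either direction). The KO libraries lay above all Het libraries for 4 and below them for 2, beside 17.1% and 16.3% of all genes (33.4% in either direction). The median log2 fold change of the 10 genes was 0.90 between KO and WT, 0.70 between Het and WT and 0.21 between KO and Het, beside medians of 0.009, 0.013 and 0.004 over all genes tested. The comparisons share libraries, so their counts are not independent.

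**Figure D1:**
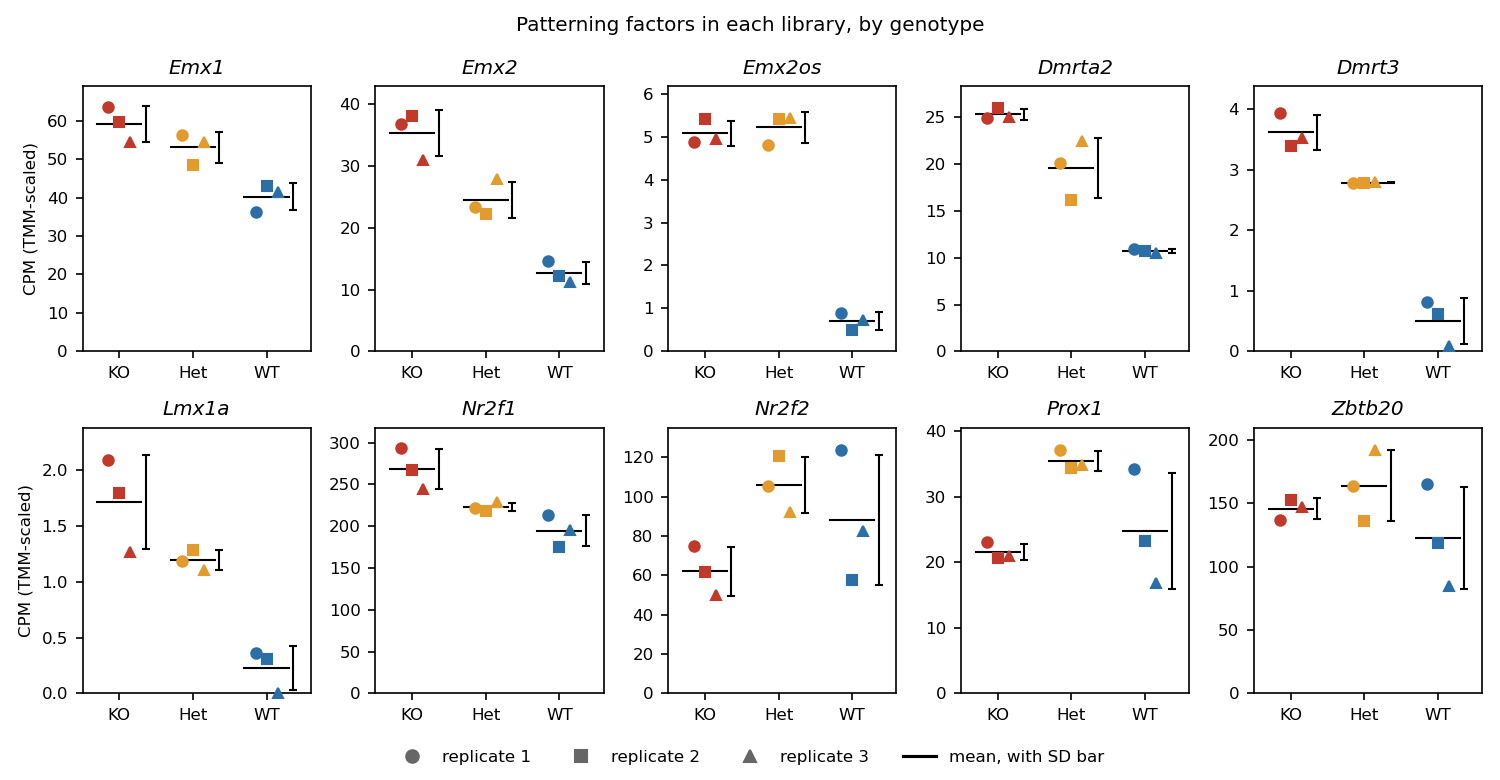
Level of each patterning gene in each library, in CPM on TMM-scaled library sizes (linear axes that start at 0), by labelled genotype. Points are libraries, horizontal lines are means and the bars beside them are 1 SD (n = 3 each). Emx2 lies at 31.04 to 38.2 CPM in KO, 22.3 to 27.9 CPM in Het and 11.2 to 14.6 CPM in WT libraries, whereas the 3 WT libraries of Prox1, Zbtb20 and Nr2f2 are spread widely.

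**Figure D2:**
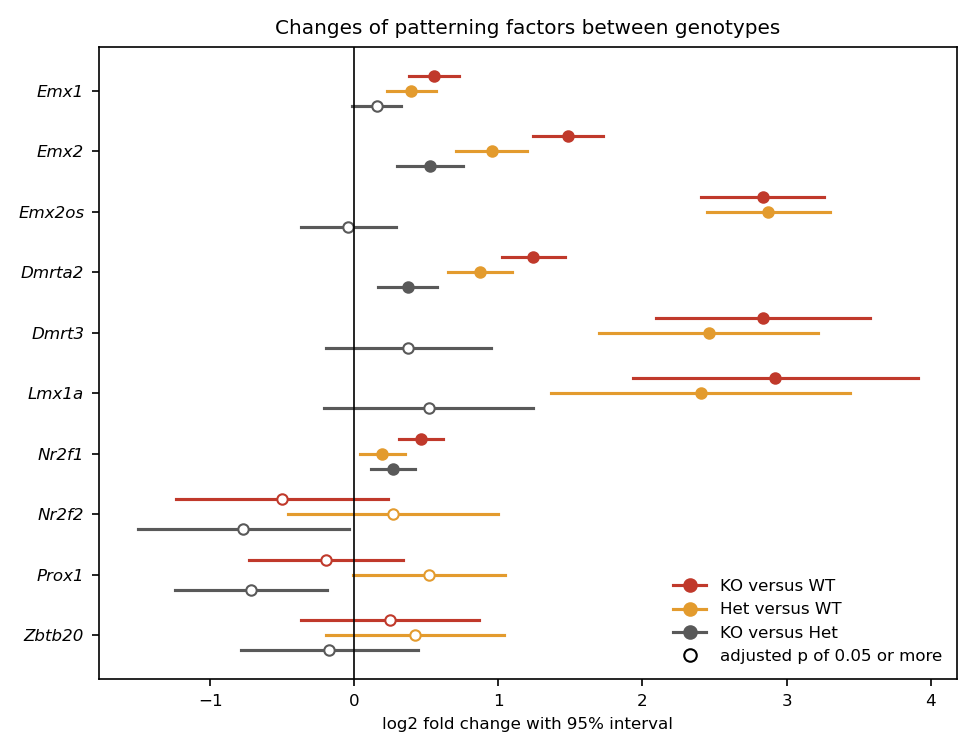
Log2 fold change of each patterning gene with its 95% interval in the 3 comparisons. Filled points passed an adjusted p of 0.05 and open points did not. Emx2os, Dmrt3 and Lmx1a have the largest changes against WT, near 2.4 to 2.9, and their KO versus Het intervals include 0.

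The protein-coding genes that exceeded 2-fold between KO and WT were Emx2, Dmrt3, Dmrta2 and Lmx1a, and their promoter sequences are shown to place these 4 beside the E-box, the CANNTG motif that class I bHLH factors bind. Each window is from RefSeq (GRCm38.p6, the build named mm10), covers 250 bases before to 50 bases after an annotated start, and is printed 5′ to 3′ on the strand of the gene. Letters in capitals mark CANNTG, which reads as the same motif on both strands. The windows are chr19:59458440-59458739 for Emx2, chr19:25610287-25610586 for Dmrt3, chr4:109977775-109978074 for Dmrta2 and chr1:167689308-167689607 for Lmx1a, all on the plus strand.
Emx2: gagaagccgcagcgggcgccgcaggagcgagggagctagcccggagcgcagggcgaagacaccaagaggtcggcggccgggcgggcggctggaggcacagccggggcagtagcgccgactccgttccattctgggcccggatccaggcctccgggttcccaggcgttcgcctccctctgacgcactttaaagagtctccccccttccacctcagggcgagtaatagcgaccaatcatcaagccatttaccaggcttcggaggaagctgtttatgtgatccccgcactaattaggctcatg
Dmrt3: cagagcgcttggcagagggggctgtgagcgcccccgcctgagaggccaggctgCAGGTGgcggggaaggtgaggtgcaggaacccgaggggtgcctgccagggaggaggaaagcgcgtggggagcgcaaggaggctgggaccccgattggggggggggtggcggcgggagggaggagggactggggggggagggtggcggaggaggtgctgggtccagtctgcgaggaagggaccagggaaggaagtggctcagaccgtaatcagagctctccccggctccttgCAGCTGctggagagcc
Dmrta2: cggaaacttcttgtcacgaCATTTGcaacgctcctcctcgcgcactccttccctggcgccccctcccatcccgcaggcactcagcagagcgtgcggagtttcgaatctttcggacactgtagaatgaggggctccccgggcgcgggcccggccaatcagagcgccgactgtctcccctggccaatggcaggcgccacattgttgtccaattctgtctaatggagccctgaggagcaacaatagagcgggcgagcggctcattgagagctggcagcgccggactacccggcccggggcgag
Lmx1a: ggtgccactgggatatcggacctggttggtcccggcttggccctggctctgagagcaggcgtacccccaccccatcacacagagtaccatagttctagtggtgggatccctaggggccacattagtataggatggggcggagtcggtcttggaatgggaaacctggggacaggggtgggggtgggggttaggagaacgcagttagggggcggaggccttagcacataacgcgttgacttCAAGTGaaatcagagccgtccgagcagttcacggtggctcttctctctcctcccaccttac
The Emx2 window holds no CANNTG, the Dmrt3 window holds 2 (CAGGTG and CAGCTG), and the Dmrta2 and Lmx1a windows hold 1 each (CATTTG and CAAGTG). In 32851 windows of the same length, 72.3% held at least 1 CANNTG and the median was 1. CAGCTG was in 16.3% of the windows, and CAGGTG or its reverse CACCTG was in 20.2%. A match here is a string of letters and not a measured binding site, and no match says only that the letters are not in these 300 bases. The Emx2 window also spans the GENCODE start of Emx2os, which is transcribed in the other direction. GENCODE places the starts of Emx2 and of Lmx1a upstream of their windows, which rest on RefSeq starts. It places the start of Dmrt3 (chr19:25610301) near the 5′ end of its window, before both CANNTG of that window. By the GENCODE starts Emx2 and Emx2os lie 263 bases apart on chromosome 19, and their exons share 264 bases.

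EMX1 and EMX2 are homeodomain factors of dorsal telencephalic progenitors. EMX2 promotes caudal and medial cortical fates and is needed for a normally sized hippocampus in the mouse, and EMX1 is also kept in cortical projection neurons. Emx1 (chromosome 6, 85187438 to 85204462, plus strand, mm10) was counted at 63.5, 59.6 and 54.3 CPM in KO, 56.3, 48.5 and 54.3 CPM in Het and 36.3, 43.1 and 41.4 CPM in WT libraries. Every KO and every Het library lay above every WT library, and the KO and Het libraries overlapped. Emx1 differed by 0.55 on the log2 scale (SE 0.08, adjusted p = 2.57e-05) between KO and WT and 0.40 (SE 0.08, adjusted p = 0.00083) between Het and WT. For KO versus Het it was 0.16 with a 95% interval from -0.01 to 0.33 (adjusted p = 0.208).

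Emx2 (chromosome 19, 59458372 to 59465357, plus strand) was higher in KO than in Het and higher in Het than in WT libraries. Its level was 36.8, 38.2 and 31.04 CPM in KO, 23.4, 22.3 and 27.9 CPM in Het and 14.6, 12.2 and 11.2 CPM in WT libraries. No library of one labelled genotype overlapped those of another. KO exceeded WT 2.79-fold (log2 fold change 1.48, SE 0.11, adjusted p = 5.46e-08), Het exceeded WT 1.94-fold (0.96, SE 0.12, adjusted p = 9.49e-06), and KO exceeded Het 1.44-fold (0.53, SE 0.11, adjusted p = 0.00357). The KO versus Het difference passed the threshold in all 19 alternatives that set no minimum fold, with any 1 library left out among them, and it lay below the fold of 1.5 set in another.

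Emx2os (chromosome 19, 59425104 to 59458635, minus strand) is a long non-coding RNA transcribed away from the Emx2 promoter region. Reads assigned to it numbered 140, 142 and 149 in KO, 117, 160 and 157 in Het and 20, 11 and 17 in WT libraries, which is 4.88, 5.41 and 4.95 CPM in KO, 4.80, 5.41 and 5.43 CPM in Het and 0.903, 0.490 and 0.732 CPM in WT libraries. The KO and Het libraries occupied the same range, far above all 3 WT libraries. KO exceeded WT 7.13-fold (log2 fold change 2.83, SE 0.20, adjusted p = 6.44e-09) and Het exceeded WT 7.33-fold (2.87, SE 0.20, adjusted p = 9.64e-09). The KO versus Het difference was -0.04 with a 95% interval from -0.37 to 0.29 (adjusted p = 0.904). The sources used here do not say whether reads were counted by strand, so reads in the 264 shared bases could belong to either RNA. Of the 31-base words of the transcripts, 7.81% of those of Emx2 and 5.87% of those of Emx2os also occur in another gene.

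As a ratio to Emx2 reads, Emx2os reads came to 13.3%, 14.2% and 15.9% in KO, 20.5%, 24.3% and 19.5% in Het and 6.19%, 4.03% and 6.54% in WT libraries. The 3 genotypes did not overlap, and the ratio was highest in Het libraries. Per unit length, in the deposited FPKM values, which scale counts by gene length and library total, the Emx1 to Emx2 ratio was 1.95 ± 0.12 in KO, 2.53 ± 0.27 in Het and 3.77 ± 0.76 in WT libraries (SD, n = 3 each), so that Emx1 exceeded Emx2 in every library and by the least in KO. In all, 4 such ratios within pairs were each compared between the 3 genotypes, which gave 12 comparisons. With 3 libraries against 3, the smallest two-sided p of an exact permutation test is 0.1, so no ratio could pass 0.05, and 10 of the 12 comparisons reached that smallest value (adjusted p = 0.12).

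**Figure D3:**
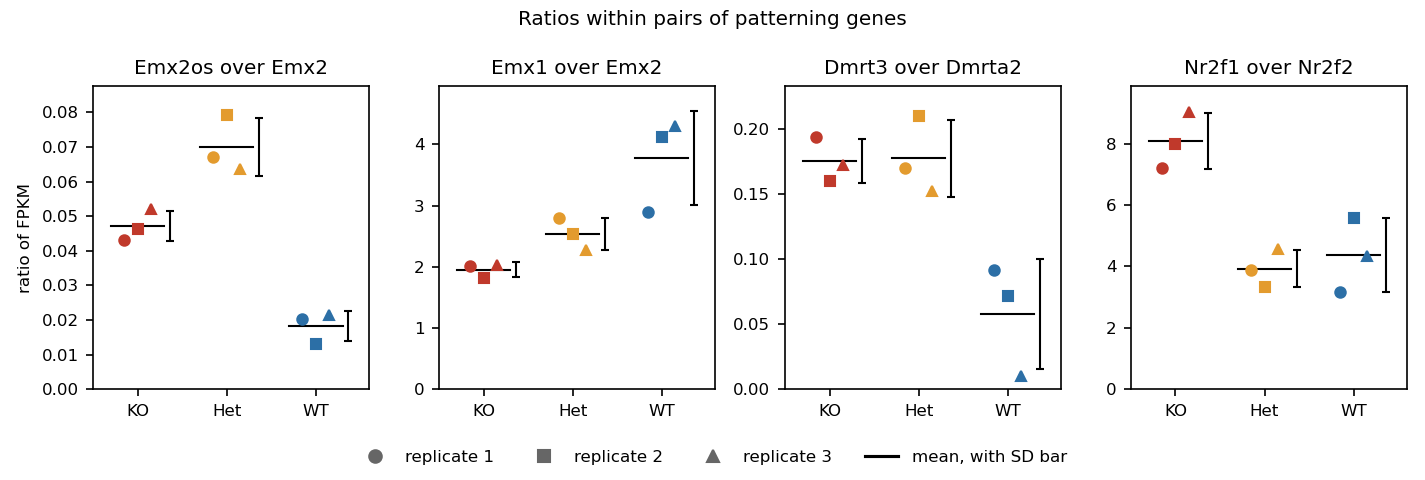
Ratio of FPKM within 4 pairs of patterning genes in each library, by labelled genotype (linear axes that start at 0). Points are libraries, horizontal lines are means and bars are 1 SD (n = 3 each). Emx1 over Emx2 is 1.95 in KO, 2.53 in Het and 3.77 in WT libraries on average, and Nr2f1 over Nr2f2 is 8.08 in KO, 3.93 in Het and 4.37 in WT libraries.

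DMRTA2 and DMRT3 are zinc-finger factors of the doublesex family, expressed in medial and caudal cortical progenitors, and the mouse needs DMRTA2 for the cortical hem and hippocampus to form. Dmrta2 (chromosome 4, 109978053 to 109983687, plus strand) was counted at 24.89, 25.93 and 25.002 CPM in KO, 20.1, 16.2 and 22.4 CPM in Het and 10.9, 10.7 and 10.5 CPM in WT libraries. The 3 groups did not overlap, and the KO and WT libraries were each tightly grouped. KO exceeded WT 2.37-fold (log2 fold change 1.24, SE 0.10, adjusted p = 4.47e-08), and the Het versus WT log2 fold change was 0.87 (SE 0.10, adjusted p = 4.72e-06). KO exceeded Het by 0.37 on the log2 scale (SE 0.10, adjusted p = 0.0157), a call lost without KO replicate 1, KO replicate 2 or Het replicate 2 (adjusted p of 0.052, 0.069 and 0.098).

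Dmrt3 (chromosome 19, 25610301 to 25623921, plus strand) was a low-count gene with 113, 89 and 106 reads in KO, 68, 82 and 81 reads in Het and 18, 14 and 2 reads in WT libraries. That corresponds to 3.94, 3.39 and 3.52 CPM in KO, 2.79, 2.77 and 2.80 CPM in Het and 0.813, 0.624 and 0.086 CPM in WT libraries. All KO libraries lay above all Het libraries, and all Het libraries lay above all WT libraries. KO exceeded WT 7.14-fold (log2 fold change 2.84, SE 0.35, adjusted p = 8.87e-06) and Het exceeded WT 5.50-fold (2.46, SE 0.36, adjusted p = 6.44e-05). The KO versus Het difference of 0.38 had a 95% interval from -0.20 to 0.95 (adjusted p = 0.385). The FPKM of Dmrt3 over that of Dmrta2 was 0.175 ± 0.017 in KO and 0.177 ± 0.029 in Het libraries, against 0.0576 ± 0.042 in WT libraries (SD, n = 3 each), and the KO and Het ratios overlapped (exact permutation p = 1). No 31-base word of either Dmrt transcript occurs in another gene.

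LMX1A is a LIM homeodomain factor that marks the cortical hem and the roof plate and choroid plexus next to it. Lmx1a (chromosome 1, 167689237 to 167848741, plus strand) had 60, 47 and 38 reads in KO, 29, 38 and 32 reads in Het and 8, 7 and 0 reads in WT libraries, or 2.09, 1.79 and 1.26 CPM in KO, 1.19, 1.29 and 1.11 CPM in Het and 0.361, 0.312 and 0 CPM in WT libraries. Each KO and each Het library exceeded each WT library, while the lowest KO library fell within the Het range. KO exceeded WT 7.58-fold (log2 fold change 2.92, SE 0.47, adjusted p = 7.56e-05), and the Het versus WT log2 fold change was 2.41 (SE 0.49, adjusted p = 0.000863). Without WT replicate 3, the library with no read, the values were 2.33 between KO and WT and 1.81 between Het and WT, and both passed the threshold. The KO versus Het difference was 0.52 with a 95% interval from -0.21 to 1.24 (adjusted p = 0.342).

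Most genes of the cortical hem and roof plate that were called against WT were called higher, like Lmx1a. Of 18 such genes, 14 were tested, and 9 were higher and 1 was lower in KO than in WT libraries. The counts between Het and WT were also 9 higher and 1 lower, and between KO and Het 2 were higher and none lower. Between KO and Het only 1 was called without KO replicate 1, KO replicate 3 or Het replicate 1. The same held with DESeq2, a replicate block, a filter at 1 CPM in 3 libraries or a fold of at least 1.5. The median log2 fold change of the 14 was 0.93 between KO and WT, 0.52 between Het and WT and 0.34 between KO and Het. The shares of all genes tested called higher were 26.5%, 22.5% and 8.3% in these 3 comparisons, and those called lower 26.3%, 23.4% and 8.44%. Rspo3, a secreted enhancer of WNT signalling, averaged 14.5 ± 1.2 CPM in KO and 14.4 ± 0.6 CPM in Het libraries, against 5.44 ± 0.20 CPM in WT libraries (SD, n = 3 each), with log2 fold changes of 1.42 (SE 0.11, adjusted p = 1.08e-08) and 1.40 (SE 0.11, adjusted p = 2.17e-08). Rspo3 was at the same level in KO and Het libraries to within their spread. The WNT ligand gene Wnt2b was higher in KO libraries, at 3.65 ± 0.11 CPM, against 1.67 ± 0.14 CPM in WT libraries (log2 fold change 1.13, adjusted p = 0.000604). The frizzled receptor gene Fzd10 was also higher, at 2.99 ± 0.28 CPM in KO and 2.46 ± 0.08 CPM in Het libraries, against 1.46 ± 0.23 CPM in WT libraries (log2 fold changes of 1.03 and 0.75, adjusted p of 0.000247 and 0.00456). Axin2, a feedback inhibitor that WNT signalling induces, was called between KO and Het, at 28.3 ± 1.3 CPM in KO and 20.4 ± 1.9 CPM in Het libraries (log2 fold change 0.47, adjusted p = 0.00222). The one gene called lower in Het than in WT libraries among those with a mean log2 CPM of at least 1 was Bmp6, a BMP ligand gene, at 2.12 ± 0.51 CPM in Het and 4.03 ± 0.78 CPM in WT libraries (log2 fold change -0.92, adjusted p = 0.00174).

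The hem ligand genes Wnt8b and Wnt3a lay below the expression level used for naming genes and were chosen after their values were seen. Of the other hem and roof plate genes below that level, Msx1 and Rspo1 were also higher in every KO than in every WT library. Bmp4 went the other way, at 0.174 to 0.228 CPM in KO and 0.316 to 0.646 CPM in WT libraries. Gdf7 and Msx2 overlapped between KO and WT, and Lmx1b had at most 2 reads in any library. Wnt8b had 3.38, 3.16 and 3.32 CPM in KO, 1.64, 1.22 and 1.14 CPM in Het and 0.632, 0.0445 and 0 CPM in WT libraries. Its 3 groups did not overlap, as for Dmrt3. The fitted log2 fold change was 3.86 between KO and WT (adjusted p = 0.000297) and 2.55 between Het and WT (adjusted p = 0.00914). Without WT replicate 1, the WT library with most Wnt8b reads, the fitted values were 6.95 and 5.64, and without WT replicate 3 they were 3.27 and 1.96, so their size rests on few reads. KO exceeded Het by 1.31 on the log2 scale (adjusted p = 0.063), and this passed the threshold without any 1 of the WT libraries (adjusted p of 0.00067 to 0.033). Wnt3a, the WNT ligand gene best known from the hem, had 1.22, 0.724 and 1.69 CPM in KO, 0.410, 0.541 and 0.623 CPM in Het and 0.0903, 0.0891 and 0 CPM in WT libraries. Both comparisons with WT passed the threshold (adjusted p of 1.11e-05 and 0.0013), and the KO versus Het call (adjusted p = 0.034) was lost without KO replicate 1, KO replicate 3 or any 1 Het library (adjusted p of 0.058 to 0.17). It was also lost with DESeq2 (0.076), with limma on FPKM (0.054 and 0.065) and with a replicate block in the fit (0.051).

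Choroid plexus markers varied between libraries. The 10 choroid plexus markers summed to 33.5 to 57.8 CPM in KO, 21.0 to 46.9 CPM in Het and 23.2 to 33.4 CPM in WT libraries, none was at 0 in all 9 libraries, and of 8 tested, 2 were higher in KO than in WT libraries, a share close to the 26.5% of all genes tested. The choroid plexus transcript Ttr stood at 23.1, 25.2 and 6.94 CPM in KO, 0.164, 7.07 and 15.7 CPM in Het and 0.723, 1.02 and 0.043 CPM in WT libraries. Its KO versus WT call (adjusted p = 0.0306) was lost without KO replicate 1, KO replicate 2, Het replicate 2 or any 1 WT library (adjusted p of 0.051 to 0.094), and with a replicate block in the fit (0.080). In Het replicate 1, Lmx1a stood at 1.19 CPM, above all 3 WT libraries. The 10 choroid plexus markers summed to 21.0 CPM in that library, the lowest sum of the 9 libraries. Ttr lay below WT replicates 1 and 2. Otx2, at 0.123 CPM, Kl, Clic6, Sostdc1, Slc4a5 and Foxj1 lay below all 3 WT libraries. Aqp1 lay within the WT range. Folr1, at 0.779 CPM, and Kcne2, at 0.287 CPM, lay above all 3 WT libraries. The ciliated-cell gene Foxj1, which is in the same marker list, averaged 21.9 ± 2.6 CPM in KO and 19.5 ± 4.4 CPM in WT libraries (SD, n = 3 each). Of the 8 markers of Cajal-Retzius cells, early neurons that arise partly at the hem, 7 were higher in KO and 7 in Het than in WT libraries, and their summed level was 679 to 754 CPM in KO, 745 to 963 CPM in Het and 459 to 520 CPM in WT libraries. Of all genes tested, 26.5% were higher in KO and 22.5% in Het than in WT libraries. The part of choroid plexus and Cajal-Retzius cells in the Lmx1a, Dmrt3 and WNT results was not tested.

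**Figure D4:**
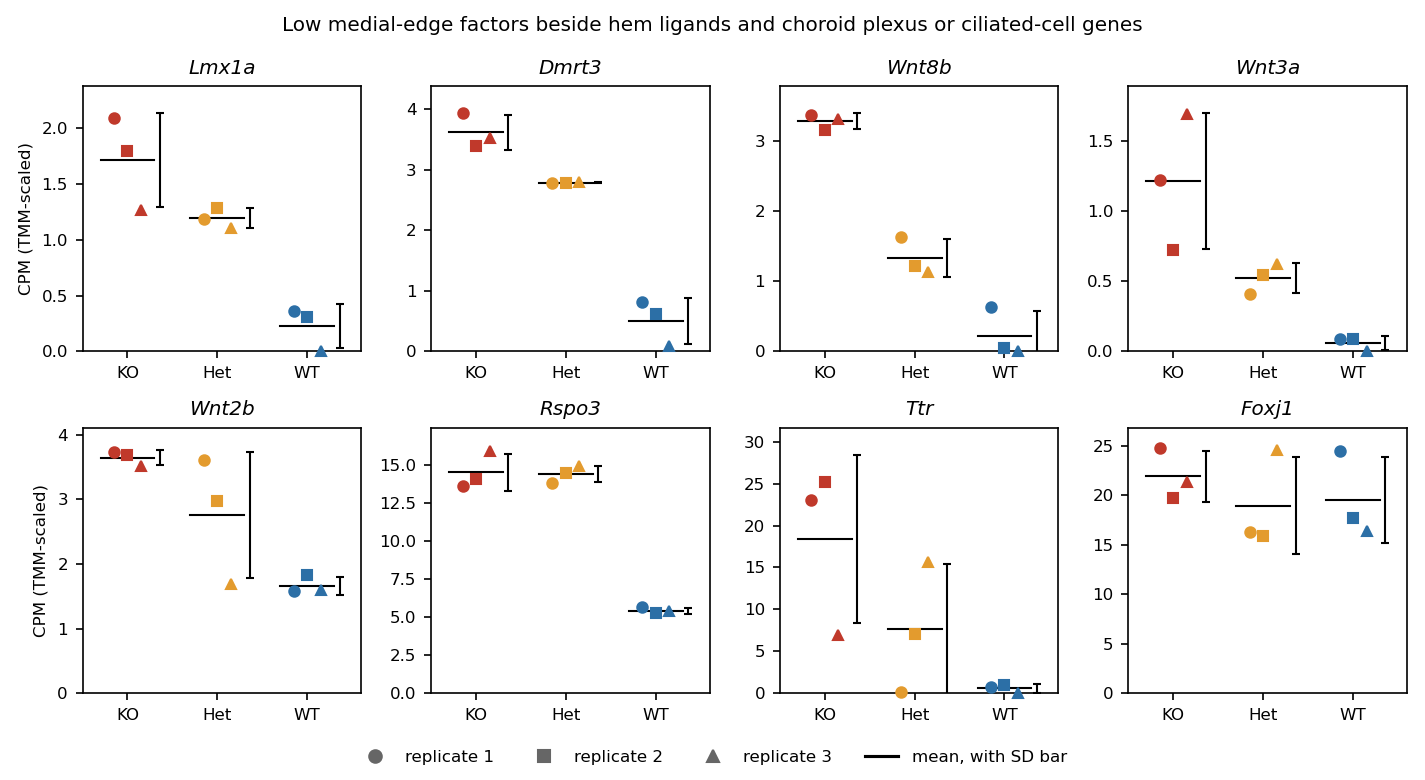
Level in each library, in CPM on TMM-scaled library sizes, of Lmx1a and Dmrt3, of the hem ligand genes Wnt8b, Wnt3a, Wnt2b and Rspo3, and of the choroid plexus transcript Ttr and the ciliated-cell gene Foxj1, by labelled genotype. Points are libraries, horizontal lines are means and bars are 1 SD (n = 3 each), ending at 0 where the SD exceeds the mean. In the Het libraries Lmx1a lies at 1.11 to 1.29 CPM and Ttr runs from 0.164 to 15.7 CPM. Choroid plexus markers other than Ttr and Foxj1 are not shown.

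Of the COUP-TF receptor genes, Nr2f1 was called higher in KO and Het than in WT libraries, and Nr2f2 was called in no comparison. NR2F1 is a main regulator of area position, which promotes caudal sensory identity in cortical progenitors and neurons, and NR2F2 is strongest in caudal and medial territory and in interneurons that migrate from the caudal ganglionic eminence. Nr2f1 (chromosome 13, 78188973 to 78199757, minus strand) was counted at 294, 267 and 245 CPM in KO, 222, 218 and 228 CPM in Het and 214, 176 and 195 CPM in WT libraries. The KO libraries lay above all Het libraries, which lay above all WT libraries. Log2 fold changes were 0.46 (SE 0.07, adjusted p = 5.96e-05) between KO and WT, 0.20 (SE 0.07, adjusted p = 0.038) between Het and WT and 0.27 (SE 0.07, adjusted p = 0.0183) between KO and Het. Both smaller differences depended on single libraries. The Het versus WT call was lost without KO replicate 2, Het replicate 1, Het replicate 3, WT replicate 2 or WT replicate 3 (adjusted p of 0.051 to 0.18), and the KO versus Het call without KO replicate 1, KO replicate 2, Het replicate 1 or Het replicate 2 (adjusted p of 0.054 to 0.12). The antisense RNA gene A830082K12Rik, whose exons share 123 bases with those of Nr2f1 on the other strand, averaged 22.6 ± 1.8 CPM in KO and 17.9 ± 0.5 CPM in WT libraries (log2 fold change 0.33, SE 0.08, adjusted p = 0.00328).

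Nr2f2 (chromosome 7, 70351944 to 70366735, minus strand) did not pass the threshold in any of the 3 comparisons. Its level was 74.8, 61.5 and 50.0 CPM in KO, 105, 120 and 92.0 CPM in Het and 123, 57.8 and 82.6 CPM in WT libraries. All KO libraries were below all Het libraries, and the WT libraries overlapped with both. Nr2f2 differed by -0.77 on the log2 scale (SE 0.30, adjusted p = 0.151) between KO and Het, with a 95% interval from -1.50 to -0.04, and -0.50 with an interval from -1.24 to 0.23 between KO and WT (adjusted p = 0.214). Among all genes tested, 16.3% had every KO library below every Het library. When the KO and Het libraries were fitted alone, the Nr2f2 difference between them had an adjusted p of 0.036. Of the 31-base words of Nr2f2, 8.12% occur in another gene, mostly in B130024G19Rik on the other strand, which shares 643 exon bases with it.

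The Nr2f1 to Nr2f2 ratio of FPKM was 7.22, 7.99 and 9.02 in KO, 3.89, 3.34 and 4.57 in Het and 3.18, 5.59 and 4.35 in WT libraries. All KO ratios lay above all Het and all WT ratios, at 2.05 times the Het mean and 1.85 times the WT mean, and the Het and WT ratios overlapped (exact permutation p = 0.7). The 10 markers of caudal interneurons, cells in which Nr2f2 and Prox1 are both known to be expressed, summed to 276 to 302 CPM in KO and 302 to 316 CPM in Het libraries, against 396 to 430 CPM in WT libraries. Of the 10, 8 were lower and 1 was higher in KO than in WT libraries, and 7 were lower and 1 was higher in Het than in WT libraries. The higher one was Htr3a, at 7.22 ± 0.28 CPM in KO and 12.5 ± 3.9 CPM in Het libraries, against 4.13 ± 0.46 CPM in WT libraries (Het versus WT log2 fold change 1.59, adjusted p = 6.14e-06). Of all genes tested, 26.3% were lower and 26.5% higher in KO than in WT libraries. Between Het and WT, 23.4% were lower and 22.5% higher. The part of caudal interneurons in the Nr2f2 and Prox1 levels was not tested.

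PROX1 specifies dentate granule cells of the hippocampus, and ZBTB20, a zinc-finger repressor, sets the fields of the hippocampus apart from the cortex beside it. Prox1 (chromosome 1, 190118035 to 190170714, minus strand) was counted at 23.1, 20.8 and 21.0 CPM in KO, 37.2, 34.4 and 34.9 CPM in Het and 34.3, 23.3 and 16.8 CPM in WT libraries. The Het libraries were above every KO and every WT library, and the KO libraries fell inside the wide range of WT. The log2 fold change was -0.20 between KO and WT with a 95% interval from -0.73 to 0.34 (adjusted p = 0.505), 0.52 between Het and WT with an interval from -0.01 to 1.05 (adjusted p = 0.0993) and -0.71 between KO and Het with an interval from -1.24 to -0.19 (adjusted p = 0.0737). Both values against WT moved with single WT libraries. Without WT replicate 1 the Het versus WT value was 0.82 (adjusted p = 7.2e-05) and the KO versus WT value turned to 0.10. With WT replicate 3 left out, KO and WT differed by -0.41 (adjusted p = 0.018). The KO versus Het value stayed between -0.76 and -0.69 with any 1 library left out, and it passed the threshold in 7 of the 19 alternatives without a minimum fold, among them the fit without WT replicate 1 (adjusted p = 0.0002), that without WT replicate 3 (0.00099), DESeq2 (0.023) and the fit of the KO and Het libraries alone (2.5e-05).

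Zbtb20 (chromosome 16, 42875881 to 43642602, plus strand) was counted at 137, 153 and 147 CPM in KO, 164, 136 and 192 CPM in Het and 165, 118 and 84.5 CPM in WT libraries. The 3 groups overlapped, and the spread was largest among the WT libraries. Log2 fold changes were 0.25 between KO and WT (95% interval -0.37 to 0.86, adjusted p = 0.454), 0.42 between Het and WT (-0.20 to 1.04, adjusted p = 0.23) and -0.17 between KO and Het (-0.78 to 0.44, adjusted p = 0.722). Without WT replicate 1 the Het versus WT value was 0.69, with an adjusted p of 0.037. WT replicate 1 had the highest level of the WT libraries for Prox1, Zbtb20 and Nr2f2 alike. The 6 thalamic neuron markers also summed highest there, at 107 CPM, against 74.9 and 90.4 CPM in WT replicates 2 and 3. Among these markers Tcf7l2 stood at 12.9, 4.01 and 5.34 CPM in WT replicates 1 to 3, while Prkcd was lowest in WT replicate 1, at 23.3 CPM. Caudal interneuron markers summed to 430, 396 and 420 CPM in WT replicates 1 to 3. Cajal-Retzius, choroid plexus, meningeal and astrocyte markers were also highest in WT replicate 1 among WT libraries, and striatal and cortical excitatory neuron markers were not. The part of RNA from any of these cells in the levels of Prox1, Zbtb20 and Nr2f2 was not tested. Over the 9 libraries, Prox1 and Zbtb20 were each other's nearest genes among the 10, with a root mean square difference of centred log2 CPM of 0.28. Genes outside the 10 lay nearer to each, with Slc22a4 at 0.14 from Prox1 and Igdcc3 at 0.12 from Zbtb20.

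Genes that distinguish hippocampal fields or layers were described beside them. Of 15 such genes, all tested, 1 was higher and 8 were lower in KO than in WT libraries. Between Het and WT, 2 were higher and 5 lower. Between KO and Het, 1 was higher and 4 were lower in KO (3 called in all without KO replicate 1 or KO replicate 2). The shares of all genes tested called higher were 26.5%, 22.5% and 8.3% in these 3 comparisons, and those called lower 26.3%, 23.4% and 8.44%. Calb1, the calcium buffer calbindin, averaged 15.5 ± 0.2 CPM in KO and 22.6 ± 2.8 CPM in Het libraries, against 41.2 ± 6.8 CPM in WT libraries (log2 fold changes of -1.41 and -0.86, adjusted p of 1.52e-07 and 2.57e-05). Man1a, a mannosidase gene, fell to 11.7 ± 2.3 CPM in KO, against 27.3 ± 1.1 CPM in WT libraries (log2 fold change -1.22, adjusted p = 1.18e-07). Npy2r, a neuropeptide Y receptor gene, went the other way, at 9.14 ± 1.41 CPM in KO and 5.82 ± 0.98 CPM in Het libraries, against 3.19 ± 0.81 CPM in WT libraries (log2 fold changes of 1.52 and 0.86, adjusted p of 3.81e-06 and 0.00142). Wfs1, a marker of field CA1, was at 12.002 ± 2.41 CPM in Het and 23.3 ± 6.6 CPM in WT libraries (log2 fold change -0.95, adjusted p = 0.0128). Nectin3, a cell adhesion gene, was at 29.7 ± 2.9 CPM in KO and 50.4 ± 6.0 CPM in Het libraries (log2 fold change -0.76, adjusted p = 1.19e-05).

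Among 14 other dorsal telencephalic patterning factors, all tested, 7 were higher and 3 lower in KO than in WT libraries. Between Het and WT, 6 were higher and 4 lower. Between KO and Het, 7 were higher and none lower in KO (4 called with limma on FPKM and 1 with a fold of at least 1.5). The shares of all genes tested called higher were 26.5%, 22.5% and 8.3% in these 3 comparisons, and those called lower 26.3%, 23.4% and 8.44%. Tfap2c, which encodes an AP-2 factor of cortical progenitors, averaged 17.5 ± 0.8 CPM in KO and 12.2 ± 0.7 CPM in Het libraries, against 4.49 ± 0.39 CPM in WT libraries (log2 fold changes of 1.96 and 1.44, adjusted p of 2.82e-10 and 2.4e-08), and KO exceeded Het by 0.52 (adjusted p = 0.00134). Pax6, whose gradient runs against that of Emx2 in the early cortex, was at 38.1 ± 0.8 CPM in KO and 26.8 ± 2.1 CPM in Het libraries (log2 fold change 0.51, adjusted p = 0.000138) and at 20.5 ± 0.6 CPM in WT libraries (KO versus WT log2 fold change 0.89, adjusted p = 4.8e-08). Both opposing gradient factors, Emx2 and Pax6, were thus higher in KO. Lhx2, the factor that restricts the hem and keeps cortical identity, averaged 292 ± 22 CPM in KO and 255 ± 23 CPM in Het libraries, against 157 ± 15 CPM in WT libraries (log2 fold changes of 0.90 and 0.70, adjusted p of 6.12e-07 and 1.05e-05). Meis2 averaged 386 ± 6 CPM in KO and 249 ± 12 CPM in Het libraries (log2 fold change 0.63, adjusted p = 3.24e-07), and the Het level was also lower than the 340 ± 6 CPM of WT libraries (-0.45, adjusted p = 3.16e-06). Sall3, a spalt-family zinc-finger gene, was lower than WT in both, at 21.3 ± 2.9 CPM in KO and 20.1 ± 3.4 CPM in Het libraries, against 31.4 ± 0.4 CPM in WT libraries (log2 fold changes of -0.56 and -0.64, adjusted p of 0.000905 and 0.000402).

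Area regulators and area markers were mostly called in the other direction. Of 18 such genes, 16 were tested, and 1 was higher and 9 were lower in KO than in WT libraries. Between Het and WT, 3 were higher and 7 lower. Between KO and Het, none was higher and 4 were lower in KO (7 called with DESeq2 and 2 with a fold of at least 1.5). The shares of all genes tested called higher were 26.5%, 22.5% and 8.3% in these 3 comparisons, and those called lower 26.3%, 23.4% and 8.44%. Sp8, a factor of rostral progenitors that is also expressed in caudal interneurons, averaged 7.16 ± 1.17 CPM in KO and 6.74 ± 1.04 CPM in Het libraries, against 16.9 ± 3.7 CPM in WT libraries (log2 fold changes of -1.24 and -1.33, adjusted p of 2.92e-05 and 2.49e-05). Rorb, a marker of layer 4 of sensory areas, averaged 10.6 ± 0.4 CPM in KO libraries, against 27.4 ± 3.9 CPM in WT libraries (log2 fold change -1.36, adjusted p = 0.000726). Id2, an inhibitor of bHLH dimers with areal expression, had 40.1, 37.4 and 36.6 CPM in KO, 142, 167 and 164 CPM in Het and 87.7, 118 and 113 CPM in WT libraries. For Id2 the KO libraries were lowest and the Het libraries highest, with log2 fold changes of -2.05 between KO and Het (SE 0.11, adjusted p = 8.37e-07) and -1.48 between KO and WT (SE 0.11, adjusted p = 1.3e-06). Etv5, an effector of FGF signalling at the rostral pole, was at 47.7 ± 0.6 CPM in KO and 82.2 ± 6.4 CPM in Het libraries (log2 fold change -0.78, adjusted p = 1.06e-06). Crym was at 123 ± 16 CPM in Het and 66.9 ± 25.1 CPM in WT libraries (log2 fold change 0.88, adjusted p = 0.0367), a call lost when any 1 library other than WT replicate 1 was left out (adjusted p of 0.055 to 0.10). The Crym call was also lost with a replicate block in the fit (0.074) and with the Het and WT libraries fitted alone (0.095). The rostral signal genes Fgf8 and Fgf17 were near 0 in every library and were not tested.

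Compared per unit length, the 10 genes spanned a wide range of levels. In KO libraries Nr2f1 was highest at 169 ± 13 FPKM, followed by Zbtb20 at 61.3 ± 3.8 FPKM and Emx1 at 42.1 ± 2.7 FPKM. Emx2 at 21.6 ± 2.0 FPKM and Nr2f2 at 21.2 ± 4.0 FPKM did not differ beyond their spread in KO. Dmrta2 at 8.69 ± 0.19 FPKM, Prox1 at 4.31 ± 0.23 FPKM, Dmrt3 at 1.52 ± 0.11 FPKM, Emx2os at 1.02 ± 0.05 FPKM and Lmx1a at 0.525 ± 0.122 FPKM followed in that order. Het libraries had Emx1 at 38.2 ± 3.2 FPKM beside Nr2f2 at 36.5 ± 4.6 FPKM and Prox1 at 7.14 ± 0.32 FPKM beside Dmrta2 at 6.80 ± 1.15 FPKM, and neither pair differed beyond its spread. WT libraries kept Nr2f1 at the top with 119 ± 13 FPKM, and their Nr2f2 and Emx1 levels, 29.4 ± 11.4 and 27.9 ± 2.1 FPKM, did not differ beyond their spread. Several places in this order depend on the length used. For Zbtb20 the FPKM values rest on 2387 bases, the annotation gives 30730 exon bases, and per kilobase of annotated exon Zbtb20 stood sixth in KO libraries and not second. On that scale the mean of Dmrta2 lay above that of Nr2f2 in KO libraries (8.65 and 7.20 CPM per kilobase), though their single libraries overlapped. Emx2 lay above Nr2f2 in KO libraries (11.8 and 7.20 CPM per kilobase), and Emx1 lay above Nr2f2 in WT libraries (18.4 and 10.2 CPM per kilobase).

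Some genes outside the 10 followed nearly the same course over the 9 libraries, judged by the root mean square difference of centred log2 CPM. Nearest to Emx2 were Ecm2 and Celsr1, each at 0.10, and nearest to Dmrta2 were E2f7 and Hmgb2, each at 0.089. Celsr1 averaged 107 CPM in KO, 80.2 CPM in Het and 38.5 CPM in WT libraries, and Hmgb2 averaged 94.9, 66.5 and 37.1 CPM in the same order of genotypes. Emx2os was nearest to Cbx7 at 0.21 and Rpl26 at 0.25. Rpl26, a ribosomal protein gene, averaged 372 CPM in KO and 377 CPM in Het libraries, against 55.8 CPM in WT libraries, so its KO and Het levels also lay close together and far above WT. Within the 10, the nearest pairs were Emx2 with Dmrta2 at 0.16, Emx1 with Nr2f1 at 0.16 and Dmrt3 with Lmx1a at 0.18.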

How the data were processed

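RNA-seq libraries were made from total RNA of 9 dorsal telencephalon samples. Whole-number counts per gene and FPKM were deposited by the authors. Tools named in the submitters' processing notes, with no role given, are HTSeq 0.6.1, DESeq 1.10.1, TopHat2 2.0.9 and Bowtie2 2.0.6, and the build is mm10. Each FPKM in the deposited table is the count over 1 length per gene and over the library total (largest log2 spread 3.7e-14), so it is no second measurement. Genes were kept by filterByExpr (minimum count 10, minimum total count 15), leaving 15271 genes with 99.9% of reads. edgeR 4.0.16 (R 4.3.3) fitted all 9 libraries with TMM factors and a robust quasi-likelihood model, 1 coefficient per labelled genotype and 6 residual degrees of freedom. The threshold was a Benjamini-Hochberg adjusted p of 0.05 over all genes tested. SE is the size of a log2 fold change over the root of its F statistic. Library sizes behind the CPM were scaled by TMM. The procedure was run on simulated counts in which few genes were changed. Many more genes were called against WT here, so that run cannot show how scaling or error rates behave in these libraries. Alternatives used DESeq2 1.42.0, limma 3.58.1, other scaling and filters, a replicate block, only the genotypes compared, a fold of at least 1.5, and each library left out. Shared 31-base words and positions are from GENCODE M21.

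The 10 genes, the gene lists and the tests were chosen with earlier results of these data known. All 10 are named. Of the 4 patterning lists, the rule named up to 3 called genes per comparison with the largest change and a mean log2 CPM of at least 1, of which part is printed. Cell type lists are given as summed CPM.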

Additional observations from a re-analysis of the deposited data

How the results depend on the processing

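Over the 570 combinations of patterning gene, comparison and alternative, 543 kept the direction and the side of the threshold, 14 passed it where the main test did not, 12 no longer passed it, and 1 turned its direction: Prox1 in KO versus WT, whose value ran from -0.41 to 0.10 when single libraries were left out. The calls of Emx1, Emx2, Emx2os, Dmrt3, Dmrta2 and Lmx1a against WT were kept in each of the 19 alternatives that set no minimum fold. Under a fold of at least 1.5, 3420 genes were called in KO versus WT, 2518 in Het versus WT and 735 in KO versus Het, and 5, 5 and 0 of the 10 patterning genes. For KO versus Het the number of the 10 called was 5 when only those genotypes were fitted and 1 to 4 with single libraries left out (1 without KO replicate 1, KO replicate 2 or Het replicate 2), and the number of all genes called ran from 1432 to 2561, with 1467 without KO replicate 1 and 1432 without KO replicate 2, against 2556 in full. The ratio of Dmrt3 to Dmrta2 in KO over that in Het ran from 0.923 to 1.09 with single libraries left out, above 1 at 1.03 without KO replicate 2 and 1.09 without Het replicate 2, and that of Nr2f1 to Nr2f2 in Het over WT ran from 0.791 to 1.04, above 1 without WT replicate 2. The causes were not tested. Samples with the same replicate number share only that number (correlation of deviations -0.11 to 0.08). With the replicate block, 7, 8 and 4 of the 10 genes were called in KO versus WT, Het versus WT and KO versus Het, and 7775, 6641 and 2166 of all genes. Prox1 was the gene added (adjusted p = 0.029 for Het versus WT and 0.027 for KO versus Het). Scaling moved the median of all genes by at most 0.06 on the log2 scale. The ratios within pairs and their leave-outs, and the alternatives for genes outside the 10, were chosen after seeing the data. Depth limits Lmx1a, Dmrt3 and Emx2os in WT, where they had at most 20 reads per library.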

Other observations

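BC002163, a processed pseudogene inside an intron of Zbtb20 on the same strand, had 151, 107 and 142 reads in KO and 233, 122 and 102 reads in Het libraries, against 0, 1 and 0 reads in WT libraries. It was chosen after its values were seen. Zbtb20 itself overlapped between the 3 labelled genotypes, and the pseudogene shares no exon base with it.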
